A study of Mus musculus with 24 samples.

Results

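The adult mouse cerebellum was compared with the cerebellum at postnatal day 6 (P6), using 1 adult array and 2 P6 arrays out of 24 arrays in the series. These 3 arrays were taken by their titles, which call them normal cerebellum at P6 or in the adult, and 12394 genes were measured on each. All 3 tissues were from wild type mice, were frozen in liquid nitrogen after dissection, and gave total RNA by Trizol extraction for biotin-labelled Affymetrix hybridization. The age in days of the adult, the strain, the sex and the part of the cerebellum taken are not stated in the labels. The titles call the P6 arrays biological replicates, but nothing says that they came from separate animals, and the age label of P6 replicate 2 describes an early embryo, against its title, which was followed. The other 21 arrays hold 3 primary medulloblastomas from adult Ptch1 mutant mice and 18 cultures of SMB lines, which came from such tumors, and the series used the normal tissue as their control.

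In the first postnatal weeks, precursors of granule neurons divide in the outer layer of the mouse cerebellum, driven by Sonic hedgehog from Purkinje cells, and then leave the cell cycle and migrate inward. Purkinje cells meanwhile grow their dendrites, granule neurons form synapses, oligodendrocytes wrap axons in myelin, and Bergmann glia change from guides of migration into mature astrocytes. In the adult, division has nearly ended and small, densely packed granule neurons make up most of the cells.

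Values are log2 of intensity plus 16, and a difference is the adult value minus the mean of the P6 pair, so that 1 unit is 2-fold and low signals give compressed differences. With 1 adult array the report rests on no significance test, and limma fits served only as alternatives. A gene was called higher or lower where the adult array lay at least 2-fold beyond both P6 arrays and the larger of the adult value and the P6 mean reached 8.36, the median level of all genes. The spread of the adult group is unknown, and only the P6 pair gives a measure of error. In bulk tissue, fewer cells of a type and less RNA per cell cannot be told apart.

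The P6 pair was closely matched. Its differences over all genes had an SD of 0.178, below the range of 0.203 to 0.785 of the 16 other replicate pairs of the series, and 10 genes lay at least 2-fold apart. The adult array differed from P6 replicates 1 and 2 with an SD of 0.961 and 0.948, and 2287 and 2245 genes lay at least 2-fold apart. Array medians were 206.7, 209.0 and 202.4 in intensity units. Zic1 and Pcp4, chosen after their values were seen, were high on all 3 arrays, which does not test the dissection. Zic1, a transcription factor of cerebellar granule cells, measured 13.79 and 13.72 at P6 and 13.65 in the adult, and Pcp4, a Purkinje cell protein, measured 13.81, 13.97 and 14.59.

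In the adult array, nearly all measured genes of cell division were called lower, and most genes of myelin and the choroid plexus were called higher. Part of the genes of young migrating neurons and of the matrix were called lower, and part of those of synaptic release, mature granule neurons and Purkinje cells were called higher. Of the 12394 genes, 892 were called higher in the adult, or 7.20%, and 841 were called lower, or 6.79%. These shares are the background for the counts of calls below. Among the 6782 genes that reached the level for a call they were 13.2% and 12.4%, which is the nearer background for lists whose members nearly all reach it, such as the cell cycle and ribosomal lists. Without any fold limit, 47.9% of all genes lay above both P6 arrays and 41.5% below both. At 4-fold or more the counts were 268 and 288, and at 16-fold or more they were 24 and 58. The largest differences were therefore more often losses than gains. For 180 of the genes called lower the adult value lay below 7, and for 132 of those called higher the P6 mean did, so their folds rest on a signal near the low end of the scale, whose lowest value was 4.70. Just inside the 2-fold limit lay Celf4 and Rpl22, whose gaps to the nearer P6 array were 1.00 in either direction, and Sparc and Nelfe lay just outside it.

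**Figure D1:**
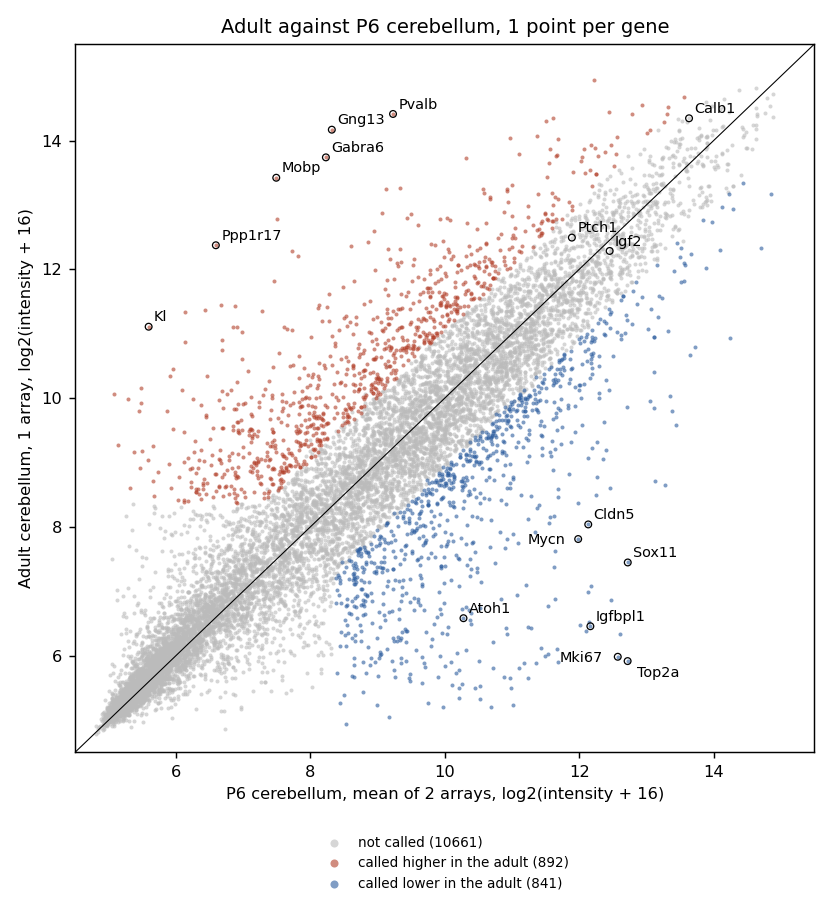
The mean of the 2 P6 arrays (horizontal) is plotted against the adult array (vertical), both in log2(intensity + 16), with 1 point per gene and a line of equality. The 892 genes called higher lie above the line and the 841 called lower lie below it, with Top2a at 5.92 and Mki67 at 5.98 in the adult, at the lower right.

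Cell division genes had the lowest median difference of the gene lists. Of 44 measured genes of the cell cycle and DNA replication, 41 were called lower in the adult and 0 higher, and their median difference was -3.69 against 0.03 over all genes. Top2a, the topoisomerase that untangles replicated chromosomes, measured 12.70 and 12.74 on the P6 arrays and 5.92 on the adult array, 112-fold lower. Mki67, which encodes the proliferation antigen Ki-67, measured 12.62 and 12.53 at P6 and 5.98 in the adult. Birc5, the survivin subunit of the chromosomal passenger complex, measured 11.03 and 11.01 at P6 and 5.23 in the adult. In each of these the P6 arrays differed by 0.1 or less while the adult lay more than 5 units below. A further Top2a probe set was near the low end throughout, at 5.19, 5.25 and 5.36.

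Genes of mitosis, of centromeres and of DNA replication were among those called lower. Cdk1, the kinase that drives entry into mitosis, measured 11.94 and 12.08 at P6 and 6.48 in the adult, and its partner cyclin gene Ccna2 measured 12.14, 12.06 and 6.38. Cenpa, the histone variant of centromeres, was at 11.56 and 11.79 at P6 and 5.90 in the adult. The licensing factors that open replication origins were also lower. Mcm5, a subunit of the replicative helicase, measured 9.87 and 9.98 at P6 and 6.0 in the adult, 15.2-fold lower. Mcm6, another subunit, measured 12.30 and 12.23 at P6 and 8.78 in the adult, 11.2-fold lower. The replication clamp Pcna differed less, at 13.83 and 13.94 at P6 and 12.03 in the adult, and Ccne1, a cyclin of the entry into S phase, was not called, at 8.36, 8.33 and 8.49.

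E2F transcription factors control many genes of DNA replication and bind words such as TTTCGCGC and TTTGGCGC. The 250 bases upstream of the start sites of Cdk1, Mcm5 and Mcm6 are shown. Promoters on a single other chromosome were left out of the choice. Among the remaining list members called lower with such a word in these bases, these 3 had the widest gaps to the nearer P6 array. The sequences are 5′ to 3′ on the gene's strand, from the RefSeq promoter table of build GRCm38.p6, and capitals mark either word on either strand. In Mcm5 and in the first site of Mcm6, words on opposite strands overlap.
Cdk1, chr10:69352913-69353162, minus strand: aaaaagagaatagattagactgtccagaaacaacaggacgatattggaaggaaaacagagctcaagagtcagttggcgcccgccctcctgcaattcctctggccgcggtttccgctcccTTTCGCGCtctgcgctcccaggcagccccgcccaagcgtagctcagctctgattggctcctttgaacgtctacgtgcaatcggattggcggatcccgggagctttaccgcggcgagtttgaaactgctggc
Mcm5, chr8:75109259-75109508, plus strand: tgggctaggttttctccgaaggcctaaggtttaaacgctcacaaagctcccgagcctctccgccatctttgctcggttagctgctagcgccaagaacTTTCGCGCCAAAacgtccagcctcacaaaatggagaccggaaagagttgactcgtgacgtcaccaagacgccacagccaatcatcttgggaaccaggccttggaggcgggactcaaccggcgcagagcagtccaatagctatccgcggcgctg
Mcm6, chr1:128359706-128359955, minus strand: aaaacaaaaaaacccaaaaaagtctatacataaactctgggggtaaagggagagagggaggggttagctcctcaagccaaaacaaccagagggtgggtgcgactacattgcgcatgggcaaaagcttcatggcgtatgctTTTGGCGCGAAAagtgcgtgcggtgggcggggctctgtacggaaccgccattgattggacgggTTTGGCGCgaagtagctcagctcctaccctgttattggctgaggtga

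Promoters, taken as 250 bases before to 50 after the start site, were found for 9883 of the genes, with 12560 promoters in all. Either E2F word on either strand was held by 1.34% of all promoters, by 0.570% of those of genes called higher and by 3.95% of those of genes called lower. In the cell cycle list it was 7 of 40 promoters, or 17.5%. Outside that list, promoters of genes called lower held it in 3.28% of cases. Genes called lower outside the list still included genes of dividing cells, such as Pbk and Pclaf. CCAAT, a common promoter word, was held by 37.1% of all promoters, 32.3% for higher genes, 42.1% for lower genes and 62.5% for the cell cycle list. TGACGTCA, the cyclic AMP response element, was held by 2.52%, 2.66%, 3.37% and 5.00% in the same order. A match describes these letters only.

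Hedgehog pathway genes differed from one another. Of 18 measured, 6 were called lower and 0 higher, with a median difference of -0.30. Mycn, the target that keeps granule precursors dividing, measured 12.04 and 11.93 at P6 and 7.81 in the adult, 18.0-fold lower, although its other probe sets, of lower signal, differed by -1.54 and 0.23. Ccnd2, the D-type cyclin of cerebellar precursors, measured 13.54 and 13.33 at P6 and 9.59 in the adult, and all its other probe sets were lower by 3.68 or more. Ccnd1, a related cyclin, measured 12.08, 11.96 and 10.21. These 3 growth genes were lower in the adult by far more than the P6 pair differed.

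The transducers of the pathway were less uniform. Gli2, a main activator of Hedgehog transcription, measured 10.75 and 10.62 at P6 and 8.10 in the adult. Gli1, itself a target and a common readout of pathway activity, measured 8.08 and 7.84 at P6 and 6.87 in the adult, short of a call both in level and in its gap of 0.97 to the nearer P6 array. Ptch1, the receptor and a second common target, was not lower: it measured 12.06 and 11.72 at P6 and 12.49 in the adult. Smo, the signal transducer, measured 10.31, 10.15 and 9.79. Sufu, an inhibitor of Gli proteins, measured 9.54, 9.43 and 7.18, with a further probe set near the low end that did not differ. Shh itself lay at 5.03, 5.04 and 5.10, at the low end of the scale. Igf2, a growth factor that acts with the pathway in this tissue, measured 12.53, 12.37 and 12.29.

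Granule neuron precursor markers were called lower for 10 of 19 genes and higher for 0, with a median difference of -1.41. Insm1, a zinc-finger factor of newly formed neurons, measured 11.11 and 11.10 at P6 and 5.81 in the adult. Atoh1, the factor that defines the precursors, measured 10.33 and 10.23 at P6 and 6.58 in the adult, 13-fold lower. Cxcr4, the chemokine receptor that holds them near the meninges, measured 9.66, 9.48 and 6.09. Factors that mature granule neurons keep were not alike. Pax6 measured 11.96 and 11.92 at P6 and 10.17 in the adult, a call. Neurod1, which directs their differentiation, measured 13.91, 13.74 and 13.20 and was not called, and Zic1 is given above.

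Genes of young migrating neurons were called lower for 14 of 29 and higher for 0, with a median difference of -1.11. Igfbpl1, a secreted protein of newborn neurons, measured 12.16 and 12.17 at P6 and 6.46 in the adult, 52.3-fold lower. Sox11, a transcription factor of immature neurons, measured 12.83 and 12.61 at P6 and 7.45 in the adult. Dcx, the microtubule protein doublecortin of migrating neurons, measured 12.31, 11.96 and 6.99. Dpysl3, a growth cone protein, measured 12.46, 12.44 and 8.61. Stmn1, a microtubule destabiliser, measured 14.34 and 14.24 at P6 and 13.30 in the adult, short of a call, while its second probe set differed by -2.02. Stmn3, a relative, measured 14.10, 14.17 and 14.52.

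Axon guidance and adhesion genes were close to the background. Of 21, 2 were called lower and 0 higher, with a median difference of -0.13. The 2 were Robo1, a Slit receptor, at 10.50 and 10.25 at P6 and 9.03 in the adult, and Plxnb2, a semaphorin receptor of granule precursors, at 10.74, 10.67 and 9.42. Reln, the layering signal reelin, measured 12.65, 12.19 and 11.59.

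Notch and neural stem cell genes were called lower for 9 of 22 and higher for 0, with a median difference of -0.96. Hes5, a Notch target that keeps progenitors undifferentiated, measured 10.39 and 10.35 at P6 and 6.56 in the adult. Neurog2, a proneural factor, measured 8.73, 8.94 and 5.73, and the Notch ligand Dll3 measured 8.75, 8.97 and 6.13. Sox2 and Id2 stand in contrast. Sox2, a stem cell factor also made by Bergmann glia, measured 11.28 and 11.29 at P6 and 11.11 in the adult, and Id2, an inhibitor of differentiation factors, measured 12.85, 12.76 and 12.88, although a probe set of lower signal differed by -1.88.

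Chromatin writers and remodellers were called lower for 11 of 27 and higher for 1, with a median difference of -0.98. Uhrf1, which directs maintenance methylation to replicated DNA, measured 11.75 and 11.59 at P6 and 6.11 in the adult. Hells, a remodeller needed for DNA methylation, measured 11.44, 11.41 and 6.12, and Ezh2, the methyltransferase of Polycomb complex PRC2, measured 11.67, 11.62 and 7.63. The other PRC2 subunits in the list differed less. Eed measured 10.94 and 11.06 at P6 and 10.36 in the adult, and Suz12 measured 11.69, 11.38 and 10.97. The 1 gene called higher was Hdac11, a histone deacetylase, at 7.69, 7.46 and 10.07.

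Fetal RNA-binding and high mobility group (HMG) genes were called lower for 9 of 19 and higher for 2, with a median difference of -0.98. Hmgb2, a chromatin protein of dividing cells, measured 13.15 and 13.12 at P6 and 8.71 in the adult, 21.5-fold lower, and Hmgb3 measured 12.63, 12.80 and 9.86. Igf2bp3, a fetal mRNA-binding protein, measured 9.20, 8.89 and 6.01. Ptbp1, a splicing regulator that represses neuronal exons, measured 10.63, 10.67 and 9.10, with a second probe set near the low end that differed by 0.00. Ptbp2, its neuronal relative, measured 12.85, 12.83 and 11.80 on the probe set kept, but 9.87, 9.74 and 9.64 on a second one. The 2 called higher were Rbfox1, a neuronal splicing factor, at 10.22, 10.14 and 11.38, and Celf4, another neuronal RNA-binding protein, at 11.27, 11.01 and 12.27.

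**Figure D2:**
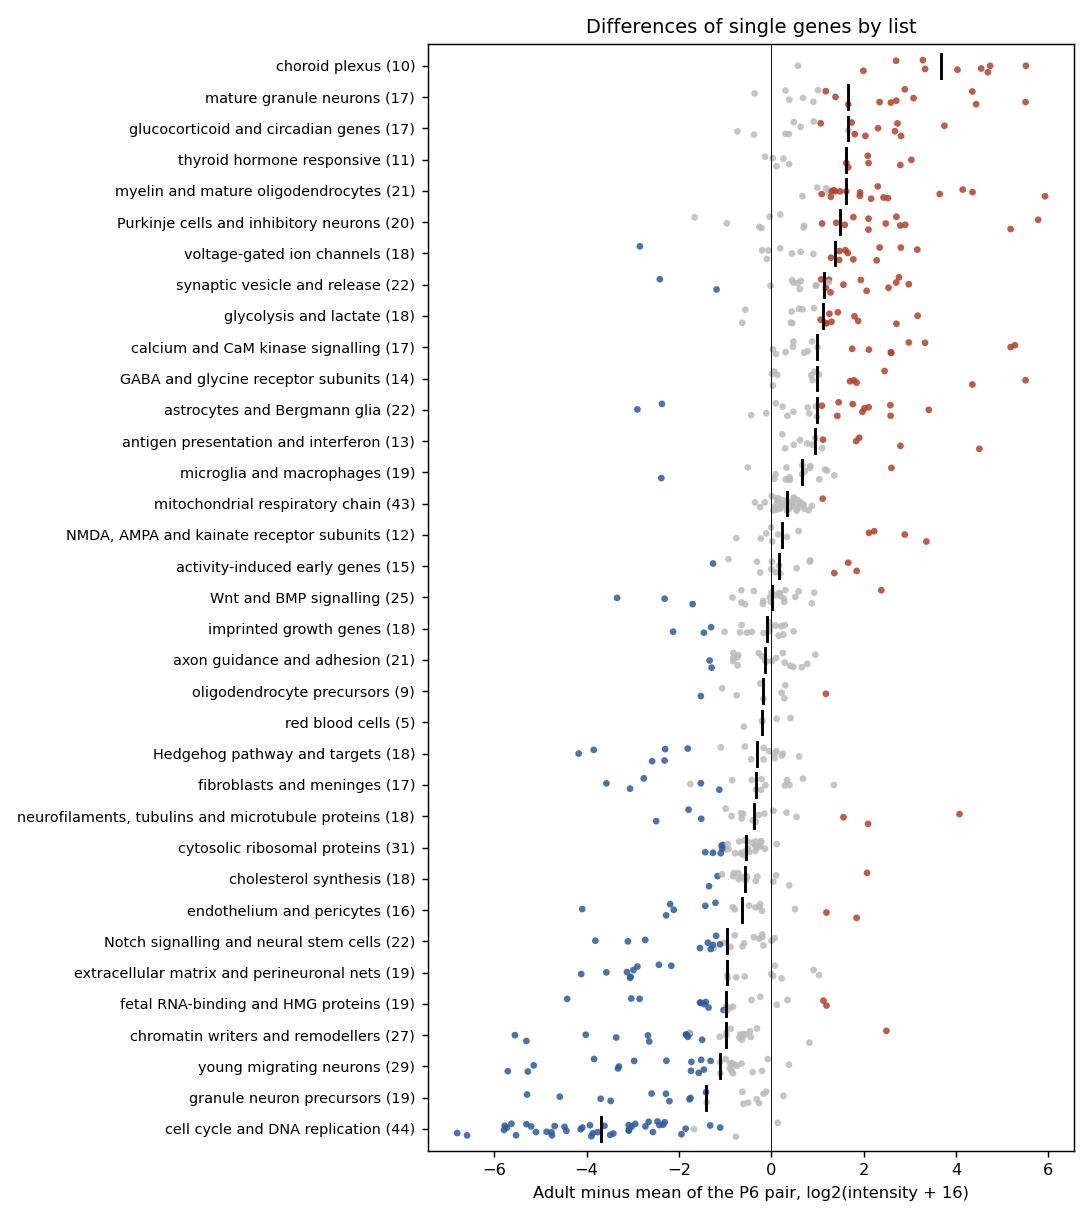
Each point is the difference of a gene, adult minus the mean of the P6 pair, in log2(intensity + 16), set out by gene list with the number measured in parentheses and ordered by the median, drawn as a black bar. Red points were called higher, blue points lower and grey points neither. The medians run from -3.69 for the cell cycle list to 3.68 for choroid plexus.

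Mature granule neuron genes were called higher for 11 of 17 and lower for 0, with a median difference of 1.67. Gabra6, the GABA-A receptor subunit that granule neurons make in the cerebellum, measured 7.80 and 8.66 at P6 and 13.74 in the adult, 45.5-fold higher. Its second probe set measured 5.19, 5.56 and 11.67. Cbln3, a secreted synaptic organiser of granule neurons, measured 5.83 and 5.99 at P6 and 10.34 in the adult. The P6 arrays differed by 0.86 for Gabra6, a wide spread for this pair, yet the adult lay more than 5 units above either. Cbln1, the related organiser of the parallel fibre synapse, was already high at P6, at 11.78 and 11.90 against 12.23 in the adult.

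Glutamate receptor subunits were called higher for 4 of 12 and lower for 0, with a median difference of 0.24. Gria1, an AMPA receptor subunit that Bergmann glia also make, measured 9.46 and 9.41 at P6 and 12.80 in the adult, 10.3-fold higher. Gria3 measured 8.14, 8.09 and 10.34, and Gria4 measured 7.85, 7.80 and 9.94. Gria2, the subunit that limits calcium entry, was not called, at 11.88 and 11.58 at P6 and 11.62 in the adult, while a second probe set differed by -1.03. Of the NMDA receptor subunits, Grin2c, the one of mature granule neurons, measured 6.63, 5.91 and 9.16. Grin2b, the subunit of young granule neurons, lay at 6.23, 6.14 and 6.18, near the low end on all 3 arrays, and so gives no measure of a switch between these subunits.

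GABA and glycine receptor genes, with their chloride transporters, were called higher for 6 of 14 and lower for 0, with a median difference of 0.99. Gabrd, the extrasynaptic partner of Gabra6, measured 5.35 and 5.55 at P6 and 9.80 in the adult, 20.4-fold higher. Glrb, the anchoring subunit of glycine receptors, measured 10.41, 10.38 and 12.24. Gabra2, a subunit of immature neurons, measured 7.02 and 6.75 at P6 and 7.92 in the adult, short of a call both in level and in its gap of 0.90 to the nearer P6 array. All 14 lay above both P6 arrays, against 47.9% of all genes, some by little, such as the subunit gene Gabra3 at 5.91, 5.86 and 5.95.

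The chloride transporters were both higher. Slc12a5 encodes KCC2, which exports chloride in mature neurons, and measured 10.74 and 10.62 at P6 and 13.13 in the adult, 5.47-fold higher. A further probe set of low signal differed by 0.53. Slc12a2 encodes NKCC1, the importer that predominates in young neurons and is also made by glia and choroid plexus. It measured 11.73 and 11.67 at P6 and 12.64 in the adult, a difference of 0.94 that fell short of a call. Its other probe sets, of lower signal, differed more, by 1.58 and 1.03.

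Voltage-gated channels were called higher for 10 of 18 and lower for 1, with a median difference of 1.38. Scn1a, a sodium channel of fast-spiking neurons, measured 7.74 and 7.33 at P6 and 10.70 in the adult. Kcna1, a potassium channel of axons and basket cell terminals, measured 9.20, 9.39 and 12.10, and Kcnc1, a channel for rapid repolarisation, measured 7.79, 7.71 and 10.10. The gene called lower was Scn3b, a sodium channel beta subunit, at 10.54 and 10.37 at P6 and 7.61 in the adult. A further Scn3b probe set, near the low end, differed by -0.23.

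Synaptic vesicle and release genes were called higher for 11 of 22 and lower for 2, with a median difference of 1.13. Syt2, a calcium sensor of fast release, measured 6.98 and 6.74 at P6 and 9.83 in the adult. Snap25, a core membrane fusion protein, measured 11.26, 11.49 and 14.08, and Vamp1, its vesicle partner, measured 7.62, 7.88 and 10.51. The third core protein went the other way. Stx1a, a syntaxin, measured 10.30 and 10.19 at P6 and 7.83 in the adult, with a second probe set of low signal that differed by -0.45. The other gene called lower was Slc17a6, the vesicular glutamate transporter VGLUT2, which granule neurons use early and climbing fibres keep, at 11.49, 11.46 and 10.29.

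**Figure D3:**
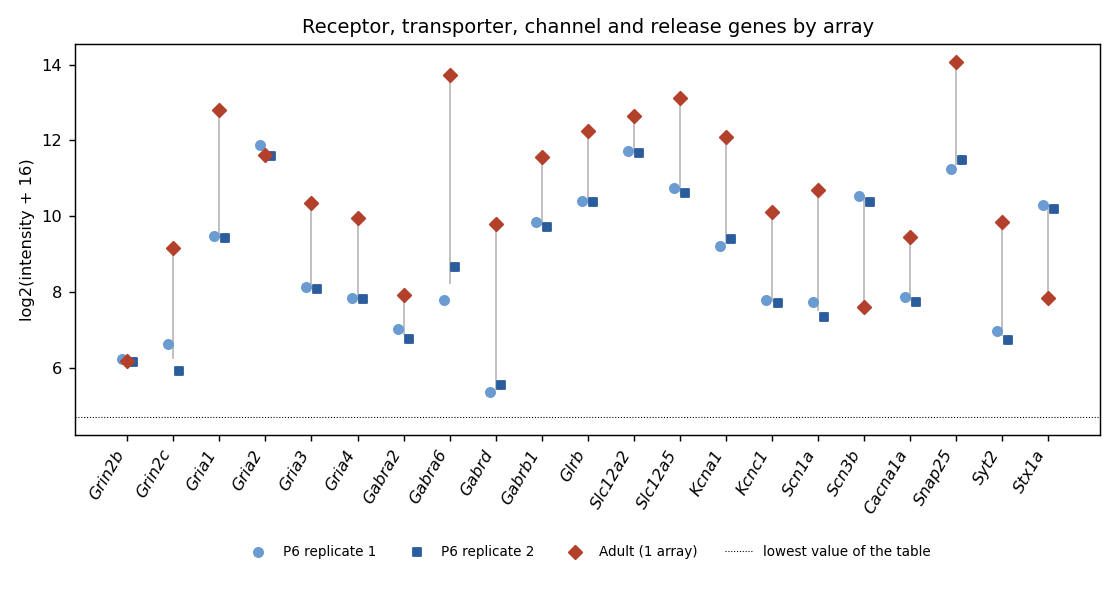
Values of single genes, in log2(intensity + 16), are shown for P6 replicate 1 (circles), P6 replicate 2 (squares) and the adult array (diamonds), with the lowest value of the whole table, 4.70, as a dotted line. The adult lies above both P6 arrays for genes such as Gabra6 and Gria1, below both for Scn3b and Stx1a, and beside them for Grin2b and Gria2.

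Cytoskeletal genes were called in both directions, at shares near the background. Of 18 neurofilament, tubulin and microtubule genes, 3 were called higher and 3 lower, with a median difference of -0.37. All 18 reached the level for a call. The share was 16.7% in each direction, against 13.2% higher and 12.4% lower among all genes at that level. Nefh, the heavy neurofilament of large myelinated axons, measured 7.13 and 7.43 at P6 and 11.36 in the adult, 16.9-fold higher. Nefl, the light chain, measured 12.89, 13.04 and 13.29, and Nefm, the medium chain, measured 10.64, 10.99 and 11.36. Among tubulins, Tubb6, Tubb5 and Tubb3 were lower. Tubb5 measured 14.10 and 14.09 at P6 and 12.30 in the adult, and Tubb3, the tubulin of young neurons, measured 11.08, 11.11 and 9.58. Tuba4a and Tubb4a, tubulins of mature neurons and glia, were higher, at 11.51, 11.80 and 13.75 for Tuba4a and 8.07, 8.31 and 9.75 for Tubb4a.

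Genes of Purkinje cells and inhibitory neurons were called higher for 12 of 20 and lower for 0, with a median difference of 1.5. Ppp1r17, a phosphatase inhibitor of Purkinje cells, measured 6.54 and 6.65 at P6 and 12.37 in the adult, 54.9-fold higher, and had the widest gap to the nearer P6 array among the genes called higher. Pvalb, the calcium buffer parvalbumin of Purkinje cells and interneurons, measured 8.87 and 9.59 at P6 and 14.41 in the adult. Pcp2, a Purkinje cell regulator of G proteins, measured 11.39, 11.62 and 14.30. Gad2, an enzyme of GABA synthesis, measured 7.16, 7.08 and 10.02. Calb1, the calcium buffer calbindin, was not called, at 13.68 and 13.59 at P6 and 14.35 in the adult. Its second probe set, of lower signal, differed more, at 10.70, 10.38 and 12.16. Lhx1, a factor of Purkinje cell identity, measured 11.40, 11.22 and 11.05. Without P6 replicate 2, 1 gene of this list was called lower.

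Calcium and CaM kinase signalling genes were called higher for 8 of 17 and lower for 0, with a median difference of 1.00. Rgs8, a regulator of G protein signalling in Purkinje cells, measured 7.30 and 7.72 at P6 and 12.79 in the adult, 38.8-fold higher. Atp2a3, a pump of the endoplasmic reticulum, measured 6.57, 6.70 and 9.97, and Inpp5a, a phosphatase that ends inositol trisphosphate signals, measured 9.18, 9.18 and 12.16. Camk2b, a CaM kinase II subunit of the cerebellum, measured 8.34, 8.30 and 10.07. Camk2a, its forebrain relative, lay at 5.77, 5.76 and 5.87.

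Astrocyte and Bergmann glia genes were called higher for 10 of 22 and lower for 2, with a median difference of 0.98. S100b, a glial calcium-binding protein, measured 10.05 and 10.58 at P6 and 13.73 in the adult, 10.6-fold higher. Slc1a2, the glutamate transporter GLT-1, measured 6.56, 6.52 and 9.12, while Slc1a3, the transporter GLAST of Bergmann glia, measured 12.40, 12.37 and 13.17. Gjb6, the gap junction protein connexin 30 of mature astrocytes, measured 8.52, 8.58 and 11.13. The 2 genes called lower were Tnc and Fabp7. Tnc, the matrix protein tenascin-C, measured 10.99 and 10.65 at P6 and 7.92 in the adult, and Fabp7, the lipid-binding protein of radial glia, measured 14.75, 14.64 and 12.33. Gfap, the astrocyte filament, measured 7.94, 8.52 and 8.32 on the probe set kept, with the adult between the P6 arrays. On a second probe set, of lower signal, the adult lay above both, at 7.07, 7.59 and 7.98.

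Myelin and mature oligodendrocyte genes were called higher for 17 of 21 and lower for 0, with a median difference of 1.62, and all 21 lay above both P6 arrays, against 47.9% of all genes. Mobp, a structural protein of compact myelin, measured 6.46 and 8.53 at P6 and 13.42 in the adult. The P6 arrays differed by 2.07 for this gene, the most of any gene in the pair. Mal, a lipid raft protein of myelin, measured 7.20, 7.71 and 11.81, and Mog, a surface protein of the outermost myelin layer, measured 4.91, 5.35 and 9.28. Mbp, the protein that compacts myelin, measured 12.51, 13.07 and 14.41 on the probe set kept. Of its 7 other probe sets, 5 differed by 2.63 or more and 2, of lower signal, by -0.01 and -0.02.

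The P6 arrays themselves differed in this list. Replicate 2 was the higher for 18 of 21 myelin genes, against 6828 of all 12394 genes. Its median excess was 0.33, against 0.02 over all genes. Each call required a gap to both P6 arrays, and the part of this difference in the comparison was not tested further. Oligodendrocyte precursor genes were called higher for 1 of 9 and lower for 1, or for 2 without P6 replicate 1, with a median difference of -0.17. The gene called lower was Pdgfra, the growth factor receptor of precursors and of meningeal fibroblasts, at 11.83 and 11.61 at P6 and 10.19 in the adult. The gene called higher was Ptprz1, a phosphatase also made by astrocytes, at 11.16, 11.04 and 12.29. With all probe sets averaged, 0 genes of this list were called higher.

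Choroid plexus genes were called higher for 9 of 10 and lower for 0, with a median difference of 3.68, the largest of the lists. Kl, the FGF23 co-receptor klotho, measured 5.79 and 5.40 at P6 and 11.11 in the adult, 45.7-fold higher, with a further probe set near the low end that differed by 0.37. F5, coagulation factor V, measured 5.29, 5.29 and 9.98. Ttr, the thyroxine carrier that the plexus secretes, measured 12.89, 12.01 and 14.45. Otx2, a factor that some granule precursors also make, was the gene not called, at 10.12, 9.61 and 10.44.

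This list also separated the P6 arrays, in the opposite order to the myelin list. Replicate 1 was the higher for 8 of 10 genes, against 5562 of all 12394 genes, with replicate 2 lower by a median of 0.57. Sostdc1, a secreted antagonist made by the plexus, measured 7.52 and 6.24 at P6 and 11.43 in the adult, and Kcne2, a channel subunit of its epithelium, measured 6.79, 5.48 and 10.88. The choroid plexus lies beside the cerebellum in the fourth ventricle, and how much of it was dissected with each sample was not tested.

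**Figure D4:**
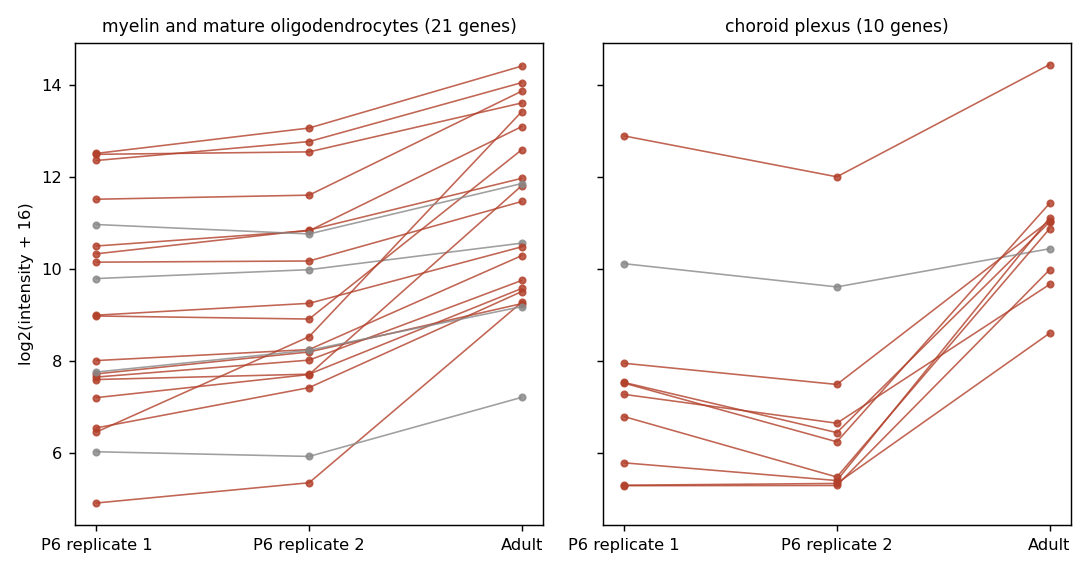
Each line is a gene followed across P6 replicate 1, P6 replicate 2 and the adult array, in log2(intensity + 16), for 21 myelin genes (left) and 10 choroid plexus genes (right), in red where called higher. In the adult all lines end above both P6 values, while between the P6 arrays 18 of 21 myelin genes go up and 8 of 10 choroid plexus genes go down.

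Vessel and matrix genes were lower in part. Of 16 endothelial and pericyte genes, 6 were called lower and 2 higher, with a median difference of -0.64. Cldn5, the tight junction protein of brain endothelium, measured 12.08 and 12.19 at P6 and 8.04 in the adult, 17.1-fold lower. Kdr, the VEGF receptor of growing vessels, measured 9.13, 9.03 and 6.80, and Tek, the angiopoietin receptor, measured 8.55, 8.47 and 6.32. The transporters of the barrier went the other way. Slco1a4, an organic anion transporter, measured 7.09 and 7.23 at P6 and 9.01 in the adult, and Slc2a1, the glucose transporter GLUT1, measured 10.59, 10.59 and 11.78.

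Of 19 extracellular matrix genes, 9 were called lower and 0 higher, or 1 higher without P6 replicate 2, with a median difference of -0.96. Col4a1, a collagen of vessel basement membranes, measured 11.34 and 11.08 at P6 and 7.09 in the adult, 17.4-fold lower. The neural proteoglycans Ncan and Vcan were lower as well, at 10.44, 10.53 and 7.36 for Ncan and 11.49, 11.30 and 8.35 for Vcan. Acan and Hapln1, components of perineuronal nets, lay between 5.25 and 5.61 on all 3 arrays, near the low end. Fibroblast and meningeal genes were called lower for 5 of 17 and higher for 0, or for 1 without P6 replicate 1, with a median difference of -0.33. Col3a1, a fibrillar collagen, measured 13.49, 13.26 and 9.80, whereas Dcn, the proteoglycan decorin of the same cells, measured 12.26, 12.22 and 12.11.

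Calls were few among microglia, macrophage and red blood cell genes, but not among antigen presentation and interferon genes. Of 19 microglia and macrophage genes, 1 was called higher and 1 lower, with a median difference of 0.66. Above both P6 arrays lay 15 of the 19, against 47.9% of all genes. Without P6 replicate 2, 5 were called higher. Ctss, the lysosomal protease cathepsin S, measured 10.44 and 10.74 at P6 and 13.19 in the adult. Mrc1, the mannose receptor of macrophages at brain borders, measured 9.65, 9.61 and 7.25. P6 replicate 2 was the higher P6 array for 18 of the 19, against 6828 of all 12394 genes, by a median of 0.32. Antigen presentation and interferon genes were called higher for 5 of 13 and lower for 0, or higher for 3 with all probe sets averaged. All 13 lay above both P6 arrays, against 47.9% of all genes. Among them was Ifit3, an interferon-induced antiviral gene, at 6.05, 5.85 and 10.46. Of 5 red blood cell genes only 1 reached the level for a call, and 0 were called. Hba-a1, an alpha globin gene, lay at 5.64, 5.47 and 5.97.

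The share of metabolic genes called differed by pathway. Of 18 genes of glycolysis and lactate, 10 were called higher and 0 lower, with a median difference of 1.12. Eno2, the neuronal enolase, measured 8.53 and 8.77 at P6 and 11.82 in the adult, 9.00-fold higher, and Aldoc, the aldolase of astrocytes and zebrin-positive Purkinje cells, measured 12.05, 12.39 and 14.93. The lactate dehydrogenase subunits parted. Ldhb measured 12.28, 12.49 and 13.83, a call, and Ldha measured 12.38, 12.56 and 11.90, below both P6 arrays.

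Respiratory chain genes were called higher for 1 of 43 and lower for 0, while 38 of the 43 lay above both P6 arrays, against 47.9% of all genes, with a median difference of 0.34. The 1 gene was Sdha, the catalytic subunit of complex II, at 11.34 and 11.47 at P6 and 12.52 in the adult. P6 replicate 2 was itself above replicate 1 for 38 of the 43 respiratory chain genes, against 6828 of all 12394 genes. Its median excess was 0.12, against 0.02 over all genes. The array medians of this list were 13.05 and 13.22 at P6 and 13.25 in the adult, nearly level with replicate 2. Cytosolic ribosomal protein genes were called lower for 6 of 31 and higher for 0, and 30 of the 31 lay below both P6 arrays, against 41.5% of all genes, with a median difference of -0.56. Rps27l, a ribosomal protein also induced by p53, measured 13.35, 13.46 and 11.97, and Rps19 measured 13.85, 13.84 and 12.77. Many genes of this family have near-identical processed copies, which the probe sets may not tell apart. Of 18 cholesterol synthesis genes, 2 were called lower and 1 higher, with a median difference of -0.57. The called shares, 11.1% lower and 5.56% higher, did not exceed the 12.4% and 13.2% of all genes at the level for a call. The gene called higher was Cyp46a1, the neuronal enzyme that clears cholesterol from the brain, at 7.71, 7.62 and 9.74.

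Hormone-responsive and clock genes were mostly higher. Of 17 glucocorticoid and circadian genes, 9 were called higher and 0 lower, with a median difference of 1.67. Dbp, a clock output factor, measured 8.55 and 8.67 at P6 and 12.36 in the adult, 13.5-fold higher, and Bhlhe40, a clock repressor, measured 7.58, 7.81 and 10.50. The metallothioneins Mt1 and Mt2, which glucocorticoids and metals induce, measured 11.55, 11.68 and 14.35, and 11.06, 11.15 and 13.78. Fkbp5, a glucocorticoid receptor target, did not share this direction, at 10.06, 10.03 and 9.31. The labels used here do not state the time of day of dissection.

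Of 11 thyroid hormone responsive genes, 6 were called higher and 0 lower, with a median difference of 1.62. Dio2, the deiodinase that activates the hormone, measured 7.23 and 7.67 at P6 and 10.48 in the adult. Bdnf, a neurotrophin, measured 7.04, 6.97 and 9.09. Hr, a corepressor that the hormone induces, measured 6.79, 6.86 and 7.21. Mbp, Pcp2 and Rora in this list are also members of the myelin or Purkinje lists. Of 15 activity-induced early genes, 3 were called higher and 1 lower. Fos, the best known of them, measured 8.63, 9.61 and 10.78, and its P6 arrays lay 0.98 apart.

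Imprinted growth genes were called lower for 3 of 18 and higher for 0, with a median difference of -0.10. Cdkn1c, a cell cycle inhibitor, measured 12.36 and 12.45 at P6 and 10.27 in the adult, and Grb10, an inhibitor of insulin signals, measured 11.01, 10.83 and 9.62, with further probe sets of low signal at -0.38 and -0.52. Ndn and Peg3, imprinted genes of neurons, were not called, at 13.12, 13.13 and 13.21 for Ndn and 11.83, 11.62 and 12.02 for Peg3. Wnt and BMP genes were called lower for 3 of 25 and higher for 1, with a median difference of 0.01, which turned below 0 under 1 other setting. Wnt7a, a granule neuron factor that shapes mossy fibre terminals, was the 1 called higher, at 6.66, 6.64 and 9.03, and the Wnt antagonist Sfrp2 was lower, at 8.82, 8.75 and 5.44.

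The tumors and parental SMB cells of the series are given beside these values without a comparison. The cell cycle list had array medians of 11.06 and 11.04 at P6, 6.49 in the adult, 11.18 to 11.35 in the 3 tumors and 11.27 to 11.73 in the 8 parental SMB arrays. The granule precursor list had medians of 10.67 and 10.34 at P6, 7.02 in the adult, 10.29 to 10.64 in the tumors and 9.22 to 10.41 in the parental SMB arrays. The myelin list stood at 8.98 and 8.91 at P6, 11.47 in the adult and 7.12 to 7.98 in the tumors. The adult median was the lowest of these arrays on the cell cycle and precursor lists and the highest on the myelin list. Gabra6 measured 12.60, 5.89 and 9.10 in the 3 tumors, which differed from each other by more than the P6 pair did.

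**Figure D5:**
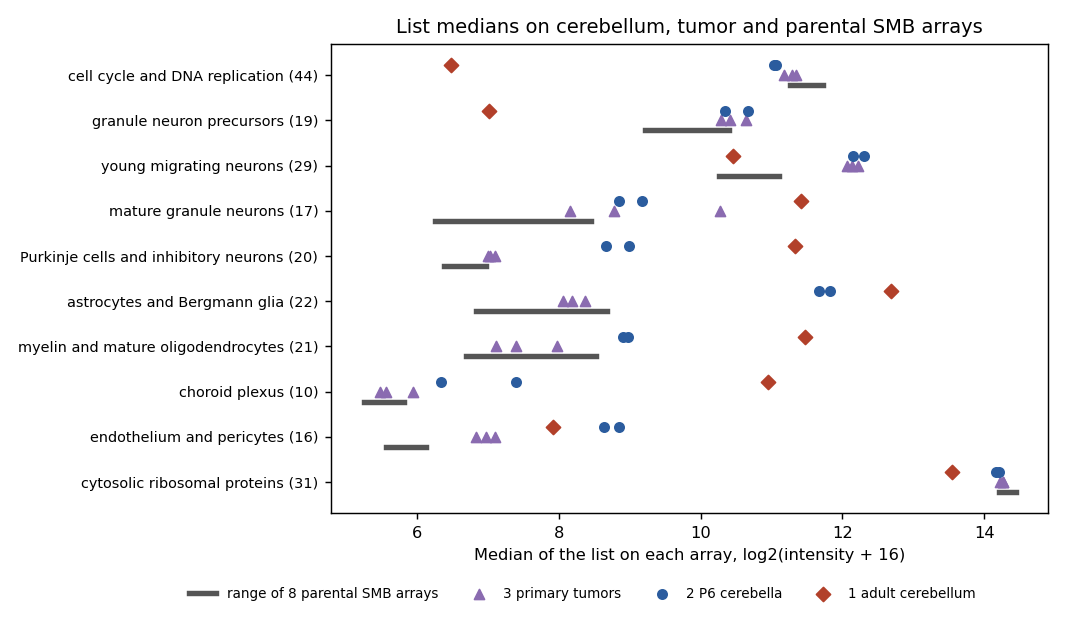
The median of each of 10 gene lists on each array is plotted in log2(intensity + 16), for the 2 P6 cerebella, the adult cerebellum, the 3 tumors and, as a bar, the range of the 8 parental SMB arrays. For the cell cycle list the adult lies at 6.49, apart from all the others, and for choroid plexus at 10.95.

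Genes with several probe sets give a check within the arrays. Of 445 such genes called higher, 292 had another probe set that was also at least 2-fold beyond both P6 arrays, and 42 had one of opposite sign. Of 446 called lower, the numbers were 277 and 56.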

How the data were processed

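Per the labels' protocols, total RNA was biotin labelled and hybridized to Affymetrix arrays. The deposited values are 1 linear intensity per probe set and array, with the method of summary and normalisation not given in the sources used here. An array has no read depth, and the number of arrays limits the precision. Of 22690 probe sets, 20393 carry 1 gene symbol in GEO's platform annotation, 691 several and 1606 none, and 64 are controls; 20364 matched the RefSeq GRCm38.p6 gene table. Per gene, 1 probe set was used, that of the highest mean across the 24 arrays (4958 genes had several), and 16 was added before log2. Python 3.11.15 and, for alternative fits, limma 3.58.1 in R 4.3.3 were used, after tests on simulated data. The alternatives were pseudocounts, scalings, filters, probe set averaging, fold thresholds, single P6 arrays and limma fits.

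The comparison, gene lists and naming rule were chosen with earlier results of these data known. That rule names the 20 genes with the largest gap in each direction and up to 4 called genes per list, leaving out clone-like names, besides 22 genes named whatever their values. Genes named beyond it were chosen after their values were seen. Some listed genes were not analysed here.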

Additional observations from a re-analysis of the deposited data

How the results depend on the processing

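Of the counts of 892 genes called higher and 841 called lower, 1 or both changed by over 1.5 times under 4 settings. In the limma fit with the tumors added, only the lower count changed by that much. Requiring a level at the upper quartile left 528 and 478, and a 4-fold limit left 268 and 288. A limma fit of the 3 arrays, with 1 residual degree of freedom and the adult array assumed to vary like the P6 pair, called 3196 higher and 3098 lower at an adjusted p under 0.05, with all 892 and 841 among them. A limma fit with the 3 tumors added called 1238 higher and 1480 lower, of which 603 and 736 were among the 892 and 841. Without P6 replicate 1 or replicate 2 the counts were 965 to 1001 higher and 941 to 943 lower. None of the called genes among 150 named genes changed direction under the scaling, pseudocount, probe set or single P6 array settings. Averaging all probe sets gave -3.33 for Top2a, -1.83 for Mycn and 2.94 for Kl, and took Grb10 (-0.74), Ptbp1 (-0.77), Rps18 (-0.45) and H2-D1 (0.73) under 2-fold. Against the SD of the P6 pair, 97 of the 150 moved with a pseudocount of 64, 71 with 1 and 61 with averaging. Centring the arrays shifted all genes by 0.03. The median of the red blood cell list changed sign under 2 of the alternatives and that of the Wnt and BMP list under 1. No paired analysis was possible because there is a single adult array, whose label carries no replicate number. Low signals limit the folds of genes near 5 to 7 on the log2 scale.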

Other observations

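Among the 20 genes with the widest gap in each direction were several outside the gene lists. Gng13, a G protein subunit, measured 8.07 and 8.57 at P6 and 14.17 in the adult, 57.7-fold higher. Crtam, an immunoglobulin family surface protein, measured 5.05, 5.11 and 10.06. Ntsr2, a neurotensin receptor made by astrocytes, measured 6.51, 6.84 and 11.44, and Dao, the enzyme D-amino acid oxidase of cerebellar astrocytes, measured 5.53, 5.43 and 9.93. Both glial genes were near the low end on the P6 arrays and well above it in the adult. Hsd11b1, which regenerates active glucocorticoid, measured 7.43, 8.03 and 12.28. Bcl6, a transcriptional repressor that acts in neurogenesis and in lymphocytes, measured 6.75, 6.94 and 11.11. A second Bcl6 probe set, of lower signal, differed by 1.34.

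H2-Aa, a chain of class II antigen presentation, measured 5.49 and 5.48 at P6 and 10.15 in the adult, while Ptprc, which marks all white blood cells, measured 6.82, 6.98 and 7.21. Among the genes lower in the adult, Aplnr, the apelin receptor of growing vessels, measured 11.38 and 11.35 at P6 and 5.89 in the adult. Pbk and Pclaf, proteins of dividing cells that the cell cycle list did not hold, measured 12.55, 12.66 and 6.34, and 12.51, 12.43 and 6.86.

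The 10 genes at least 2-fold apart between the P6 arrays included 3 choroid plexus genes, Folr1, Kcne2 and Sostdc1, all higher in replicate 1, and Mobp and S100a9, higher in replicate 2. S100a9, a neutrophil protein, measured 6.53 and 8.13 at P6 and 10.14 in the adult. Tac1, a neuropeptide precursor, measured 7.32, 5.29 and 5.17.

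The labels do not state the sex of the mice. Xist, the RNA of the inactive X chromosome, measured 5.98 and 6.10 at P6 and 7.34 in the adult. The Y-linked gene Eif2s3y measured 10.27, 10.45 and 8.55, and the Y-linked gene Uty measured 8.91, 8.99 and 8.78. These genes were looked at after the other results were known.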
